A study of Mus musculus with 3 samples.

Results

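The extracellular ATP and adenosine pathway was described through 10 genes, taken by symbol from the larger of the gene tables deposited for each library. They are 10 of the 55536 annotated genes in that table. The genes encode the ATP-gated channels P2rx7 and P2rx4, the ecto-enzymes Entpd1 and Nt5e, the adenosine receptors Adora2a and Adora2b, and 4 proteins linked to the uptake and removal of adenosine, Ada, Dpp4, Slc29a1 and Adk. RNA-seq of polyadenylated transcripts was available from 3 technical libraries of 1 biosample, activated regulatory T (Treg) cells of 1 male donor mouse aged 9 weeks. The labels name no strain, no treatment, no means of activation and no sort, and they name no other group, so nothing below compares conditions. Every SD is technical (n = 3 libraries), and every p-value measures only the spread between libraries of this biosample.

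ATP that leaves stressed or stimulated cells acts on P2X channels and P2Y receptors. The ecto-enzyme CD39, the product of Entpd1, cuts ATP and ADP to AMP, and CD73, the product of Nt5e, cuts AMP to adenosine. Adenosine then raises cAMP through the receptors that Adora2a and Adora2b encode, or is carried into the cell and phosphorylated or deaminated. Treg cells are known for CD39 and CD73, which let them restrain other T cells through adenosine.

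The libraries held 31445344 to 37259281 expected counts, that is, reads assigned to genes with shared reads split between them. Levels are given as TPM, a relative transcript abundance that corrects for transcript length and depth. Of the T and Treg cell markers, 8 of 8 were detected (TPM of at least 1 in every library). Their summed level was 5207 to 5304 TPM. The highest were the general T cell genes Cd3e, Cd3g and Lck, with means of 1274, 1210 and 1161 TPM. The sum therefore does not tell Treg cells from other T cells. Foxp3 stood at 135 ± 2.65 TPM, and Il2ra, Ikzf2 and Ctla4 had means of 317, 389 and 389 TPM. The summed levels of the lists for other cells were lower than that of the T and Treg list. The macrophage and monocyte list summed to 66.0 to 69.9 TPM (7 of 10 detected), the B cell list to 45.7 to 57.8 (6 of 7), the CD8 T and NK list to 27.8 to 30.1 (5 of 6), the dendritic list to 3.63 to 4.20 (1 of 6), the granulocyte and mast cell list to 1.91 to 21.1 (1 of 6) and the stromal list to 0.76 to 1.76 (0 of 6). The erythroid and platelet list, which is mostly haemoglobin, summed to 632 to 885 TPM (4 of 5). Of the 8 lists, 7 were highest in library 1, the stromal list being the exception. No marker was at 0 in every library. The part of these cells in the levels below was not tested, and in bulk RNA fewer cells of a type cannot be told apart from less RNA per cell.

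Of the 10 genes, 9 were detected, against 22.7% of all annotated genes and 47.3% of the 22028 protein-coding genes. The median over the 10 genes was 73.0 TPM, beside 29.2 TPM over the 10429 detected protein-coding genes. Nt5e and Adk stood highest, 5 genes lay between 45 and 85 TPM, P2rx4 and Ada were lower, and Adora2b was the gene not detected. The plot of levels by library shows how close the libraries lay for most of them.

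**Figure D1:**
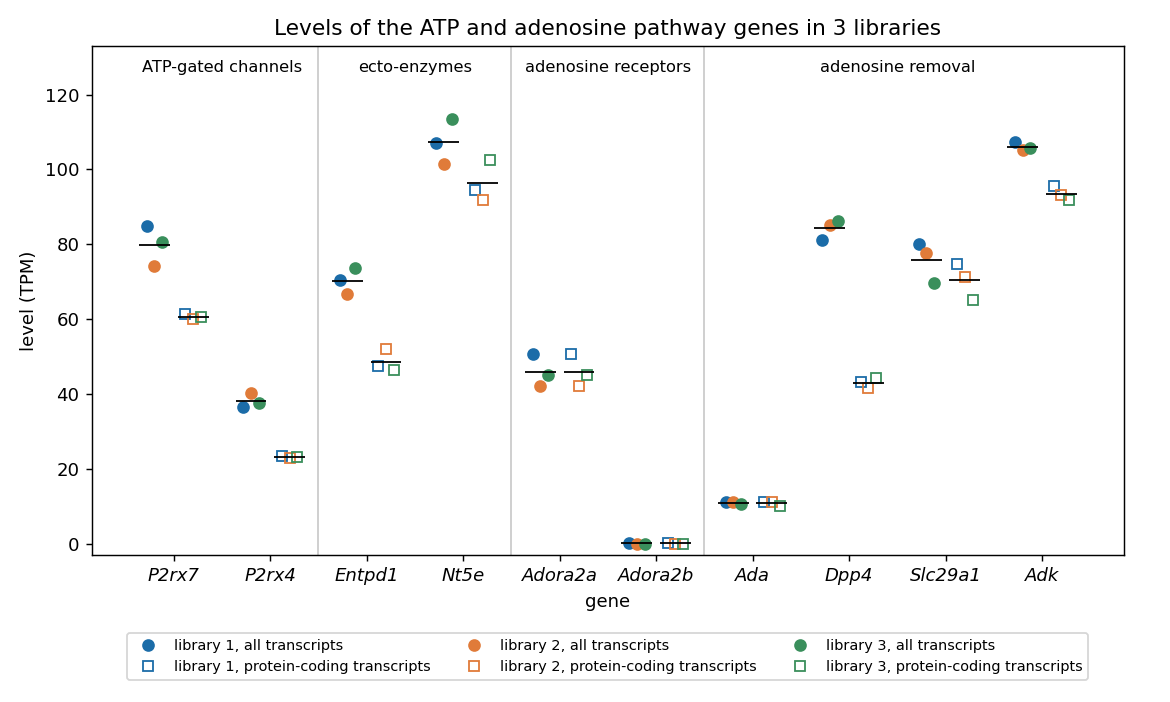
Level in TPM (y axis) of the 10 genes (x axis, grouped by role) in each of 3 technical libraries, over all transcripts (filled circles) and over protein-coding transcripts only (open squares), with horizontal lines at the means. Over all transcripts Nt5e and Adk stand above 100 TPM in every library, Adora2b is at or near 0, and Dpp4 falls from 84.2 to 43.0 TPM when only protein-coding transcripts are counted.

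P2rx7 (ENSMUSG00000029468.17, mm10 chromosome 5, 122643911 to 122691432, plus strand) encodes the low-affinity ATP channel whose prolonged opening can kill T cells. Its level was 84.8, 74.2 and 80.5 TPM in libraries 1, 2 and 3, a mean of 79.8 ± 5.33, from 4372 to 5181 expected counts. Library 2 was the low one, and the level exceeded that of 77.7% of detected protein-coding genes. Coding transcripts began mainly at 2 annotated starts. Those from the upstream start, led by P2rx7-203, carried 42.0, 42.0 and 41.8 TPM, and the transcript from the start inside the gene, P2rx7-208, carried 19.5, 18.0 and 18.8 TPM. Both levels were close between libraries. A P2rx7 form with another first exon is known from mouse T cells. The coding bases of the first exons are shown because they are what separates the forms at their 5′ end. They come from the GENCODE M21 annotation on GRCm38 (chr5:122644074-122644198 and chr5:122650424-122650539, plus strand), with the start codon in capitals.
P2rx7-203: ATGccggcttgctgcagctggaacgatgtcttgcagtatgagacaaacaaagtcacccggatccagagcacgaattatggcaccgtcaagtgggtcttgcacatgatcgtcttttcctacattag
P2rx7-208: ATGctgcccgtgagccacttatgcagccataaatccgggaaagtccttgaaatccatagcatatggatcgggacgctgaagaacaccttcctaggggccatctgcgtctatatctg

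Of the windows of 50 bases (the read length), 823 of 4887 in P2rx7-203 and 115 of 1799 in P2rx7-208 occur in no other annotated transcript. Windows that separate the 2 forms but are shared with a further transcript were not counted. P2rx7-208 made up 23.5% ± 0.676 of the gene's TPM and 15.1% ± 0.348 of its expected counts. A further 23.0% ± 3.47 of TPM was assigned to P2rx7-205, a single-exon transcript annotated as a retained intron. It stood at 21.9, 14.2 and 19.3 TPM, lowest in library 2 as the whole gene was. None of its 2054 windows is free of other P2rx7 transcripts or other genes, so its share rests on how the authors' program divided shared reads. Over protein-coding transcripts alone P2rx7 was at 61.3, 60.0 and 60.5 TPM (60.6 ± 0.661), and transcripts of other types held 23.5, 14.2 and 20.1 TPM. As the reads were divided, most of the spread between libraries lay in the other types. The coding sum depends on the same division of shared reads.

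P2rx4 (ENSMUSG00000029470.15, chromosome 5, 122707544 to 122729738, plus strand) encodes the more ATP-sensitive channel found largely on endosomes and lysosomes. It was at 36.5, 40.4 and 37.6 TPM, a mean of 38.1 ± 2.01, from 1234 to 1521 expected counts. Library 2 was the high one here, the opposite of P2rx7. The difference again lay outside the protein-coding transcripts, which summed to 23.3, 23.0 and 23.2 TPM (23.1 ± 0.152). P2rx4-208, a retained intron of which 3603 of 3846 windows occur in no other transcript, held 395, 604 and 466 expected counts, most in library 2, and 34.2% ± 4.98 of the gene's counts. The coding transcript P2rx4-202 led the gene with 41.7% ± 1.46 of TPM. None of its 1838 windows is free of other transcripts, so this share and the coding sum depend on how shared reads were divided. P2rx7 exceeded P2rx4 in every library, by 1.06 ± 0.17 on the log2 scale over all transcripts and by 1.39 ± 0.01 over coding transcripts.

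The other P2X channels were not detected (0 of 5). P2rx5 was the highest of them at 0.343 ± 0.426 TPM, with 2, 40 and 9 counts, P2rx3 was at 0.190 ± 0.200, and P2rx1 had 1, 0 and 0 counts. P2rx2 was the lowest, also with 1, 0 and 0 counts. Among P2Y receptors 2 of 8 were detected. P2ry10, which belongs to this family by sequence and is a lysophospholipid receptor, reached 64.8 ± 7.24 TPM, while P2ry14, the UDP-glucose receptor, was at 1.65, 1.65 and 4.41 TPM and P2ry13 at 0.683 ± 0.215. P2ry2, a receptor for ATP and UTP, had 0 counts in every library. Of the 7 P2X genes, P2rx7 and P2rx4 were the ones detected.

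Of 5 genes that act with or after P2rx7, 4 were detected. Pycard, the inflammasome adaptor, was at 497 ± 32.6 TPM, Adam10, a sheddase, at 80.6 ± 2.43 and Casp1, the protease that the inflammasome activates, at 66.9 ± 0.282. Nlrp3, the sensor of that inflammasome, had 2, 0 and 0 counts. Extracellular NAD can also open P2rx7 on mouse T cells, by ADP-ribosylation through the enzyme that Art2b encodes. Art2b was at 112, 123 and 120 TPM (118 ± 5.41), and Cd38, which encodes an enzyme that consumes NAD, was at 21.3, 21.8 and 21.5 TPM (21.5 ± 0.258). The log2 ratio of Art2b to Cd38 was 2.46 ± 0.05. Of the Art2b windows, 5.70% occur in another gene, including the near-identical Art2a-ps, so its level is less certain.

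For release of ATP, 4 of 8 genes were detected. Panx1, which forms the pannexin channel through which T cells let ATP out, stood at 145 ± 2.62 TPM, above each of the 10 pathway genes. Slc17a9, the vesicular nucleotide transporter, followed at 60.2 ± 3.12, and Calhm6 at 24.4 ± 1.63. Calhm1 had 0 counts in every library. The log-scale plot of the pathway lists places these genes beside the others.

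**Figure D2:**
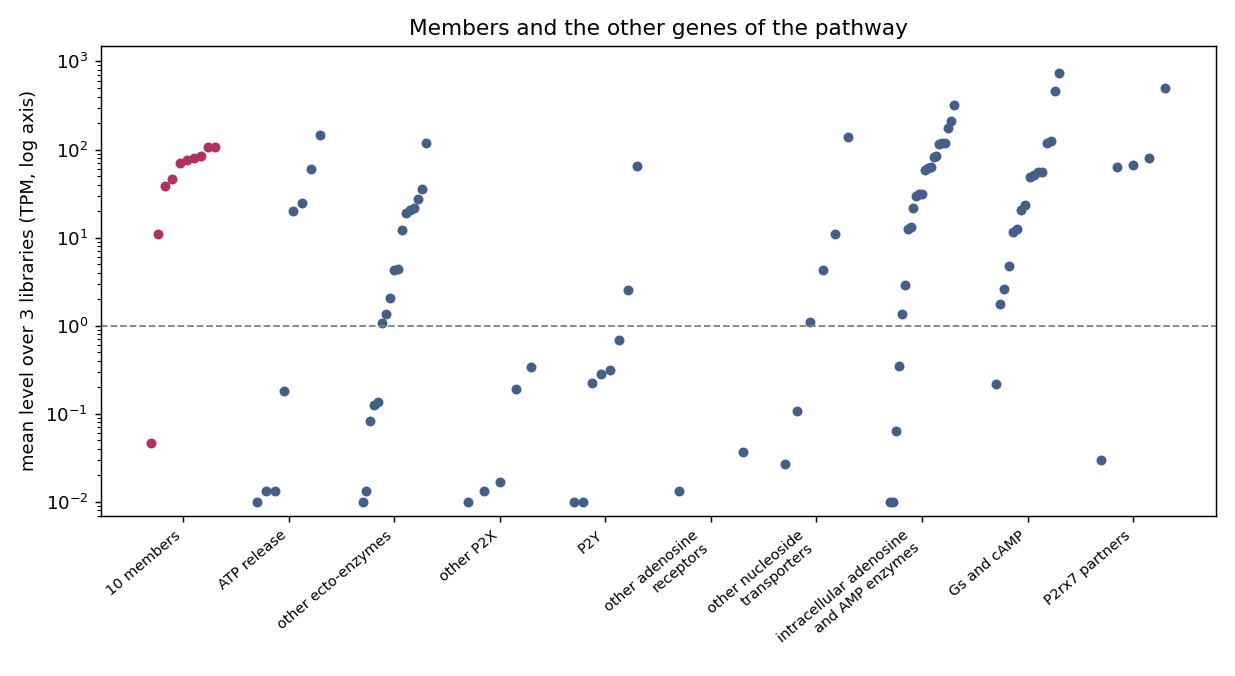
Mean level over 3 libraries in TPM (y axis, log scale) of the 10 genes (red) and of 90 other genes of the pathway in 9 lists (blue), each point 1 gene, ordered by level within its list; values under 0.01 are drawn at 0.01 and the dashed line is at 1 TPM. Other P2X channels and other adenosine receptors lie wholly under 1 TPM, while most genes of intracellular metabolism and of the cAMP branch lie above it.

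Entpd1 (ENSMUSG00000048120.16, chromosome 19, 40612366 to 40741602, plus strand) was at 70.4, 66.7 and 73.7 TPM, from 3091 to 3626 expected counts. The libraries were close, with the highest 1.11 times the lowest. The gene also had 2 annotated starts in use. Transcripts from the upstream start, led by Entpd1-204, carried 27.3, 36.6 and 30.1 TPM, and those from the inner start, led by Entpd1-201, carried 22.4, 15.8 and 22.3. Library 2 was highest for the one and lowest for the other, so the division between starts moved more than the gene's total. As shares of TPM the starts held 44.8% ± 8.81 and 28.5% ± 4.31, and as shares of expected counts 47.2% ± 7.49 and 48.5% ± 6.89. The levels in TPM did not overlap between the starts, while the shares of counts did not differ beyond their spread. Only 45 of the 2360 windows of Entpd1-204 occur in no other transcript, against 1837 of 4172 in Entpd1-201. The first exons give the protein different beginnings, shown here with the start codon in capitals (chr19:40612421-40612523 and chr19:40659885-40659900, GRCm38, plus strand, GENCODE M21).
Entpd1-204: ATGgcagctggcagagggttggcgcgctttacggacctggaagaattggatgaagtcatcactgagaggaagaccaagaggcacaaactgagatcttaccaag
Entpd1-201: ATGgaagatataaagg

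A further part of the Entpd1 level came from short noncoding transcripts. Entpd1-208 (204 bases) and Entpd1-206 (628 bases) carried 13.6% ± 3.28 and 12.7% ± 1.57 of TPM but 0.948% ± 0.258 and 3.31% ± 0.579 of expected counts. A few reads on a short transcript weigh heavily in TPM, and over coding transcripts alone Entpd1 was at 48.6 ± 2.95 TPM.

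The starts of P2rx7 and Entpd1 also differ in the DNA before them. The windows below are the 250 bases before each RefSeq start (GRCm38.p6, plus strand), printed to set the starts of 1 gene side by side, with every CG dinucleotide in capitals. They lie at chr5:122643677-122643926 and chr5:122650133-122650382 for P2rx7 and at chr19:40612116-40612365 and chr19:40659520-40659769 for Entpd1.
P2rx7 upstream start: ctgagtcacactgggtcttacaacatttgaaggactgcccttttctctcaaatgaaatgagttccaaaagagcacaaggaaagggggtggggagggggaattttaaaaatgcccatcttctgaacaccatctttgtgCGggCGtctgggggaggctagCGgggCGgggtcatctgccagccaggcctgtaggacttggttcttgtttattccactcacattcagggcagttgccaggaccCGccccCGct
P2rx7 inner start: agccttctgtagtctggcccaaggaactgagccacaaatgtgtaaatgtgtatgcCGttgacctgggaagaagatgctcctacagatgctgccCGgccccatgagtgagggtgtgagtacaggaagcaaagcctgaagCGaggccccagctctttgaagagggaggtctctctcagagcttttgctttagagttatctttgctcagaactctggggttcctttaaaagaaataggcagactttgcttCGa
Entpd1 upstream start: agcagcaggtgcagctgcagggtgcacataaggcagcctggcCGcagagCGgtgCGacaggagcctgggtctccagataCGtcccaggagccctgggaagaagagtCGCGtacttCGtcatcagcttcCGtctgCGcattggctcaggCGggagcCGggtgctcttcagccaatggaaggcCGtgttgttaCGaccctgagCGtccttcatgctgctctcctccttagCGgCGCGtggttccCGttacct
Entpd1 inner start: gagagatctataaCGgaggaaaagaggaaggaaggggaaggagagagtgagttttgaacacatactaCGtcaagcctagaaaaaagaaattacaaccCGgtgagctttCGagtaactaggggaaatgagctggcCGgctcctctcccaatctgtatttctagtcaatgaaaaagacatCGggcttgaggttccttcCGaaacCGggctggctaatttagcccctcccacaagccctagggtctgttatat

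The upstream window of Entpd1 holds 18 CG dinucleotides and the inner one 8, while the P2rx7 windows hold 6 and 4. The median over 32851 RefSeq windows of the same length is 6, with 2 and 16 at the quartiles. In both genes the start with more CG dinucleotides carried more TPM, though the Entpd1 shares of expected counts did not differ beyond their spread. The Slc29a1 starts named below kept this order by mean share. Their windows held 24, 9 and 5 CG dinucleotides, beside 43.8%, 38.7% and 12.9% of TPM. Other annotated Slc29a1 starts did not keep it. A start with 17 had no transcript assigned, and a start with 10 carried 1.59% ± 1.39 of TPM. Neither the forkhead letters TGTTTAC nor the RUNX letters TGTGGTT, searched on both strands, occur in these 4 windows. They occur in 3.17% and 4.40% of all windows, and their absence says only that these letters are not in these 250 bases.

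Nt5e (ENSMUSG00000032420.8, chromosome 9, 88327197 to 88372092, plus strand) was at 107, 101 and 113 TPM, a mean of 107 ± 6.06, from 7690 to 9961 expected counts. Library 3 was the high one. The gene exceeded 84.0% of detected protein-coding genes and was carried by 1 coding transcript, Nt5e-201, with 89.8% ± 1.21 of TPM and 94.8% ± 0.419 of counts. The ratio of Entpd1 to Nt5e was nearly constant between libraries, at -0.60, -0.60 and -0.62 on the log2 scale (0.655-fold). In counts per base of the smaller deposited gene table the same log2 ratio was 0.09 ± 0.06, within its spread, so that table gives no order for these ecto-enzymes.

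Among 17 other ecto-enzymes, 10 were detected. After Art2b the highest were Entpd6 at 35.5 ± 0.863 and Entpd5 at 27.2 ± 0.390 TPM, both relatives of CD39 that act mainly inside the secretory pathway or after secretion. Entpd8, a cell-surface relative, had 0 counts in every library. With means of 70.3 and 107 TPM over all transcripts, Entpd1 and Nt5e stood above each of the 17 except Art2b, whose product uses NAD.

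Adora2a (ENSMUSG00000020178.6, chromosome 10, 75316877 to 75334784, plus strand) encodes the high-affinity receptor that couples adenosine to cAMP in T cells. It was at 50.6, 42.2 and 45.0 TPM, a mean of 45.9 ± 4.31, from 2204 to 2583 expected counts. Library 1 was highest, and the transcript Adora2a-201 carried 97.4% ± 1.75 of TPM. Nt5e exceeded Adora2a by 1.23 ± 0.13 on the log2 scale in TPM (2.34-fold) and by 0.55 ± 0.04 per base of the smaller table (1.46-fold).

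Adora2b (ENSMUSG00000018500.2, chromosome 11, 62248984 to 62266453, plus strand), the gene of the low-affinity receptor, had 5, 0 and 0 expected counts. In library 1 that is 0.14 TPM, and in libraries 2 and 3 a count of 0 allows up to 0.0807 and 0.0715 TPM (3 counts per library). The ratio of Adora2a to Adora2b was 362 in library 1, with a 95% interval of 155 to 1114 from the exact Poisson interval of the Adora2b count, and at least 522-fold and 630-fold in libraries 2 and 3. Intervals and floors cover counting error only. Adora3 (1, 0 and 4 counts) and Adora1 (0, 3 and 0 counts) were not detected either. Adora2a was the detected adenosine receptor of the 4.

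Downstream of Adora2a, 15 of 16 genes of the Gs and cAMP branch were detected. Gnas, which encodes the stimulatory G protein subunit, was at 732 ± 11.9 TPM, the protein kinase A subunit gene Prkar1a at 464 ± 10.1 and the adenylyl cyclase gene Adcy7 at 124 ± 4.29. Adcy9, another cyclase, was the lowest at 0.220 ± 0.0300 TPM.

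Adk (ENSMUSG00000039197.10, chromosome 14, 21052574 to 21448569, plus strand) encodes adenosine kinase, which returns adenosine to AMP inside the cell. It was at 107, 105 and 106 TPM, a mean of 106 ± 1.18 with little spread between libraries, from 3585 to 4323 expected counts. Adenosine kinase is known in a long nuclear and a short cytosolic form with different beginnings. The upstream start, led by Adk-201, carried 48.0, 46.9 and 47.7 TPM and the inner start, Adk-207, carried 56.6, 56.0 and 55.7. The inner start was higher in every library, at 52.9% ± 0.308 of TPM against 44.8% ± 0.275, and at 53.9% ± 0.606 against 45.6% ± 0.649 of expected counts. The upstream sum covers 6 transcripts, of which Adk-201 alone held 36.9, 36.1 and 34.4 TPM. Only 44 of the 1733 windows of Adk-201 and 167 of the 1769 of Adk-207 occur in no other transcript. The shares thus depend in part on how shared reads were divided, which the SDs do not cover. The windows of 250 bases before the starts held 15 and 24 CG dinucleotides, so here the start with more of them was the inner one. The first coding bases show the longer and the shorter beginning, with the start codon in capitals (chr14:21052639-21052700 and chr14:21076308-21076321, GRCm38, plus strand, GENCODE M21).
Adk-201: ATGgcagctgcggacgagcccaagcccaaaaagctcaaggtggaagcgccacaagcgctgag
Adk-207: ATGacgtccaccag

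Ada (ENSMUSG00000017697.3, chromosome 2, 163726584 to 163750239, minus strand) encodes adenosine deaminase, which turns adenosine into inosine. It was the lowest of the detected genes at 11.2, 11.0 and 10.5 TPM, a mean of 10.9 ± 0.348, from 356 to 390 expected counts. The libraries lay within 1.06 times of each other. Ada exceeded 25.3% of detected protein-coding genes, and its log2 ratio to Adk was -3.28 ± 0.04 (0.103-fold). Per base of the smaller table that ratio was -2.18 ± 0.02 (0.221-fold).

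Dpp4 (ENSMUSG00000035000.8, chromosome 2, 62330073 to 62412231, minus strand) encodes CD26, a surface peptidase that in humans anchors adenosine deaminase. It was at 81.1, 85.3 and 86.3 TPM, a mean of 84.2 ± 2.75, from 4833 to 6051 expected counts. Library 1 was the low one. Its coding transcript Dpp4-201 held 51.1% ± 2.13 of TPM but 89.4% ± 1.23 of counts. The rest went to short transcripts, led by the retained introns Dpp4-204 (24.3% ± 2.37 of TPM, 5.02% ± 0.385 of counts) and Dpp4-203 (12.3% ± 4.40 and 3.98% ± 1.52). Coding transcripts alone summed to 43.0 ± 1.27 TPM. The log2 ratio of Ada to Dpp4 was -2.95 ± 0.09 over all transcripts, -2.00 ± 0.12 over coding ones and -2.30 ± 0.06 per base of the smaller table.

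Slc29a1 (ENSMUSG00000023942.15, chromosome 17, 45585200 to 45599606, minus strand) encodes the equilibrative nucleoside transporter that carries adenosine across the membrane. It was at 80.0, 77.7 and 69.7 TPM, a mean of 75.8 ± 5.44, from 2846 to 2989 expected counts. Library 3 was the low one. Its transcripts were spread over several annotated starts, of which those led by Slc29a1-202, Slc29a1-203 and Slc29a1-213 carried 43.8% ± 3.55, 38.7% ± 0.731 and 12.9% ± 2.39 of TPM. Slc29a1-203 led by TPM and Slc29a1-202 by counts, at 38.5% ± 0.516 against 37.8% ± 3.68 of TPM and 39.5% ± 0.579 against 39.9% ± 3.93 of counts, differences within their spread. Windows in no other transcript were 0 of 1939 in Slc29a1-202, 24 of 1882 in Slc29a1-203 and 52 of 2043 in Slc29a1-213. The shares of starts and transcripts thus also depend on how shared reads were divided. The log2 ratio of Slc29a1 to Adk was -0.49 ± 0.10 in TPM and 0.02 ± 0.03 per base of the smaller table, the latter within its spread.

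**Figure D3:**
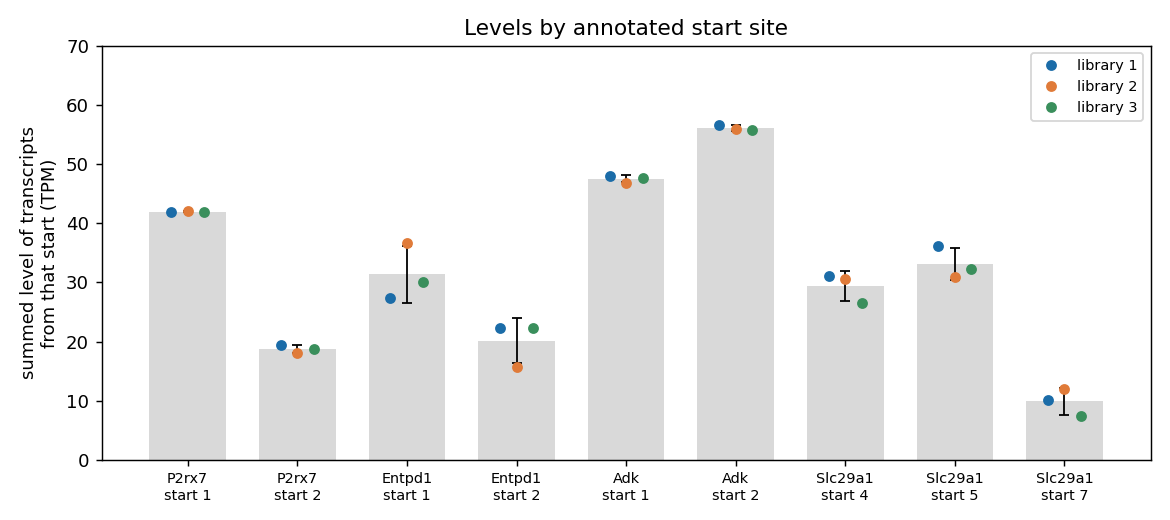
Summed level in TPM (y axis) of the transcripts from each annotated start site of P2rx7, Entpd1, Adk and Slc29a1 (x axis; starts numbered along each gene), with points for the 3 libraries, bars for the means and error bars of 1 SD. The P2rx7 and Adk starts lie close between libraries, while for Entpd1 library 2 is highest at start 1 and lowest at start 2.

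Of 6 other nucleoside transporters, 3 were detected. Slc28a2, which concentrates purine nucleosides with sodium, was at 147, 134 and 130 TPM (137 ± 9.22) and was higher than Slc29a1 in every library. Slc29a3, a lysosomal transporter, was at 10.9 ± 1.02 and Slc29a4 at 4.27 ± 0.503 TPM. Slc28a1 was the lowest with 0, 5 and 0 counts. Slc29a2, the other equilibrative transporter of the plasma membrane, had 63, 2 and 58 counts. Slc29a1 exceeded it 52.7-fold (95% interval 41.2 to 68.5) and 40.3-fold (31.2 to 53.0) in libraries 1 and 3, and 1942-fold (538 to 16038) in library 2, where only 2 counts stand behind the ratio. The mean log2 ratio was 7.32 ± 3.12, and 5.53 without library 2.

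Among 23 genes of intracellular adenosine and AMP metabolism, 18 were detected. Nt5c, a nucleotidase gene, was at 324 ± 26.2 TPM, and the purine salvage genes Hprt and Aprt were at 212 ± 7.69 and 176 ± 1.37. Nt5c1b, a cytosolic AMP nucleotidase, had 0 counts in every library. Over the 9 lists, 56 of 90 other pathway genes were detected.

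The transcripts behind each level are drawn in the plot of isoform shares. The leading transcript was protein-coding in 9 of 9 detected genes and the same by TPM and by counts in 8, Slc29a1 being the exception. Transcripts of types other than protein-coding, which for P2rx4 include 1 annotated for nonsense-mediated decay, held 39.2% ± 3.55 of TPM for P2rx4, 30.6% ± 7.72 for Entpd1, 48.9% ± 2.13 for Dpp4 and 23.9% ± 4.38 for P2rx7. For Ada they held 1.43% ± 2.47, and Adora2a has none annotated.

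**Figure D4:**
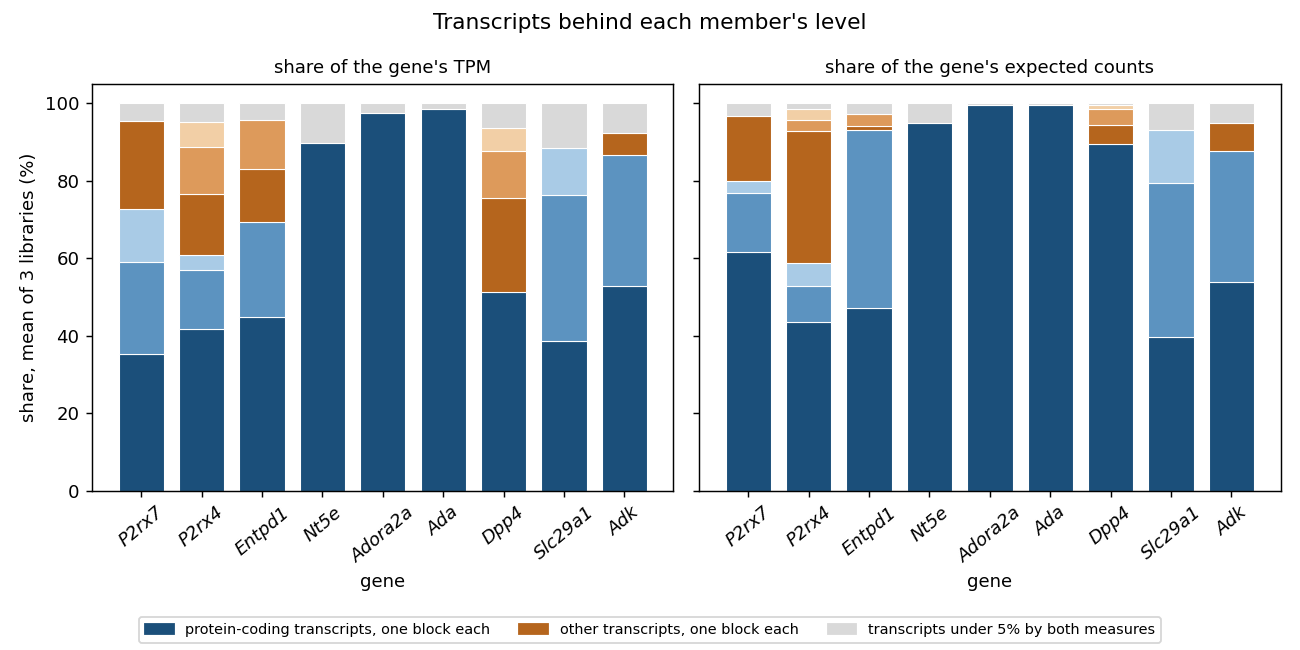
Share of each gene's summed TPM (left) and expected counts (right) held by its transcripts, as means of 3 libraries in percent (y axis) for the 9 detected genes (x axis); blue blocks are protein-coding transcripts, orange blocks other annotated types, grey the sum of transcripts under 5% by both measures. The leading coding transcript of Dpp4 rises from 51.1% of TPM to 89.4% of counts, while the orange part of P2rx4 is large by both measures.

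By mean TPM the order was Nt5e, Adk, Dpp4, P2rx7, Slc29a1, Entpd1, Adora2a, P2rx4 and Ada. A step between neighbours counted as past the spread when its log2 ratios shared a sign in all 3 libraries and averaged more than 2 SD from 0. This held for 3 of the 8 steps, from Adk to Dpp4 (0.33 ± 0.06), from Entpd1 to Adora2a (0.62 ± 0.12) and from P2rx4 to Ada (1.81 ± 0.09). Nt5e and Adk, the run from Dpp4 to Entpd1, and Adora2a and P2rx4 did not differ from their neighbours beyond the spread. Over coding transcripts the order became Nt5e, Adk, Slc29a1, P2rx7, Entpd1, Adora2a, Dpp4, P2rx4 and Ada, with 6 of the 8 original steps past the spread, 2 of them reversed (Dpp4/P2rx7 and P2rx7/Slc29a1), and Dpp4 moved from the third place to the seventh. The step from Entpd1 to Adora2a no longer exceeded the spread there (0.08 ± 0.20), while that from Adk to Dpp4 was 1.12 ± 0.06 and that from P2rx4 to Ada 1.11 ± 0.08. Per base of the smaller table the step from P2rx4 to Ada was 0.75 ± 0.04 and that from Adk to Dpp4 was reversed at -0.12 ± 0.06. With 3 libraries the smallest p of an exact sign-flip test is 0.25, so none is given.

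Of the gene pairs set within or between roles, 9 of 9 with a value exceeded the spread in TPM, and 6 of 8 did so per base of the smaller table, Entpd1/P2rx7 in the other direction. The 9 include Slc29a1/Slc29a2, with 2 counts of Slc29a2 in library 2. The spread is only technical and no share over other gene pairs was computed, so the count does not set these pairs apart. Entpd1 stood at a log2 ratio of -0.18 ± 0.07 to P2rx7 in TPM and of 0.30 ± 0.06 in the smaller table. Ada was below Adk and Dpp4 by each measure in the plot of pair ratios.

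**Figure D5:**
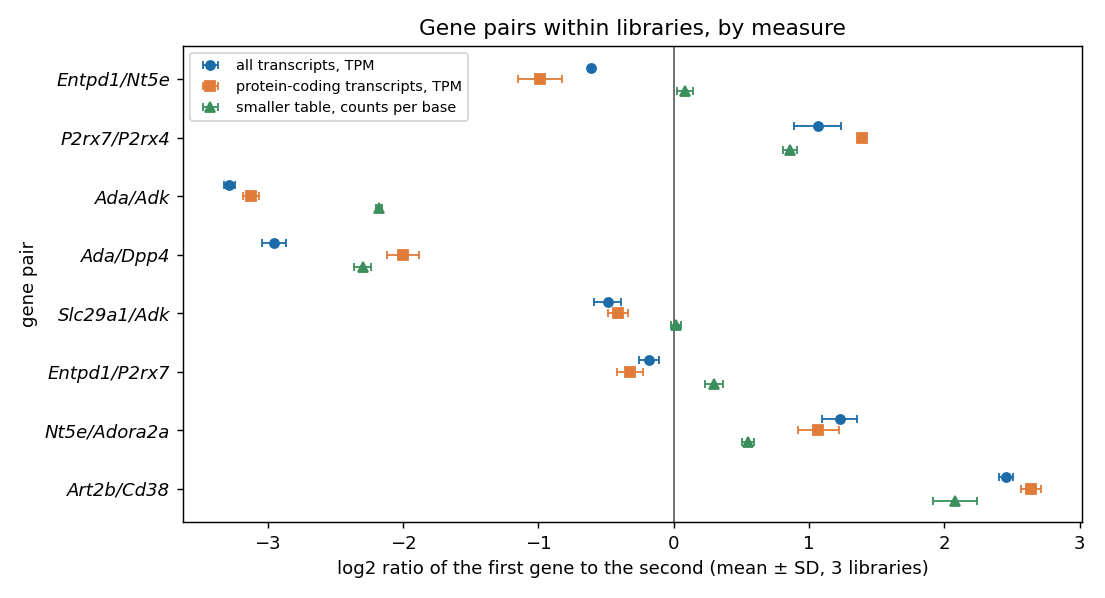
Log2 ratio of the first to the second gene within libraries (x axis, mean ± SD of 3 libraries) for 8 gene pairs (y axis), from TPM over all transcripts (circles), TPM over protein-coding transcripts (squares) and counts per base of the smaller table (triangles); the vertical line marks equal levels. The Ada pairs lie below -1.9 by all 3 measures, while Entpd1/Nt5e and Entpd1/P2rx7 lie on different sides of 0 by TPM and by the smaller table.

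Whether the libraries differed beyond counting noise was tested with a chi-square test on expected counts with Benjamini-Hochberg adjustment over 15945 genes. Of the 9 genes tested, 6 varied, against 65.8% of all genes tested. Adjusted p-values from that chi-square test were 6.76e-12 for Nt5e, 1.42e-06 for Adora2a, 1.62e-06 for Slc29a1, 4.22e-05 for P2rx4, 0.000107 for P2rx7 and 0.0215 for Dpp4, with no call for Entpd1 (0.756), Adk (0.703) and Ada (0.444). The share is close to the background and the sizes were small, the highest library standing 1.06 to 1.20 times the lowest in the 6 genes. On counts of protein-coding transcripts, an alternative added after seeing the data, 4 of 9 varied against 72.3% of genes, and P2rx7 (0.171), P2rx4 (0.614) and Dpp4 (0.0658) no longer passed while Entpd1 did (0.00195). After division by the overdispersion across genes 0 of 9 varied (0.734% of genes), and 0 of 9 in the smaller table (33.4%). P2rx7, Adora2a, Ada, Slc29a1 and Adk were highest in library 1, as were 7 of the 8 marker lists. Among those lists the granulocyte and mast cell list summed to 21.1, 1.91 and 5.29 TPM and the erythroid and platelet list to 885, 632 and 709 TPM in libraries 1, 2 and 3. The part of these cells in the differences was not tested.

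Other annotated genes lie within these loci, and no source used here says whether reads were counted by strand. The antisense genes Gm13561 at Dpp4 and Gm17080 at Slc29a1 were at 0.523 ± 0.229 and 0.177 ± 0.0874 TPM, and the pseudogene Gm8783 inside Entpd1 at 3.36 ± 2.40. All were far below their hosts. At most 1.36% of the 50-base windows of any of the 10 genes occur in the same orientation in a transcript of another gene. Matches to transcripts on the opposite strand, such as the antisense genes, were not counted.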

How the data were processed

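PolyA RNA-seq was analysed from 3 technical libraries of 1 group. Per the file headers and sample notes, the authors deposited expected counts and TPM per gene and transcript on mm10 with GENCODE M21, and a smaller table of whole-number counts per gene on mm10 with GENCODE M4. For the aligner, quantification program and strand use, the sources used here give nothing. Rows naming no annotated gene held 0.125% to 0.182% of expected counts and stayed out of totals and tests. The smaller table held 8758421 to 9555924 counts per library.

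Detection was a TPM of at least 1 in every library. Expected counts were rounded and tested by chi-square (2 degrees of freedom, summed count of at least 30) against library totals, with Benjamini-Hochberg adjustment at 0.05. The code of the test was run on simulated Poisson counts, which have no overdispersion. The overdispersion across genes here was 11.7, so that run does not show how the test behaves on these counts. Alternatives used edgeR 4.0.16 (TMM) and DESeq2 1.42.0 size factors, other filters, a pseudocount of 1 TPM, coding transcripts, the smaller table and each library left out. Ratios per base of the smaller table used the larger table's gene lengths. Transcripts were named from 5% of a gene's TPM or counts, and assigned to a RefSeq start (GRCm38.p6) within 250 bases. Windows of 50 bases were compared over all GENCODE M21 transcripts, in the same orientation only. All 10 genes were named, with the 3 highest and the lowest gene of each list and 6 set genes. The genes and lists were chosen with earlier results of these data known. Python 3.11.15, scipy 1.17.1 and R 4.3.3 were used.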

Additional observations from a re-analysis of the deposited data

How the results depend on the processing

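The number of detected genes, 9 of the 10 and 56 of the 90 others, stayed within 1.5 times under every threshold, table and left-out library tried. Per base of the smaller table the log2 ratios changed sign to 0.0855 for Entpd1/Nt5e and 0.0162 for Slc29a1/Adk, both within their spread, and to 0.30 for Entpd1/P2rx7, and to -0.36 for Nt5e/Adk, -0.12 for Adk/Dpp4 and -0.59 for P2rx7/Slc29a1. Over coding transcripts Dpp4/P2rx7 turned to -0.49 and P2rx7/Slc29a1 to -0.21. In library 1 the smaller table held 279 counts for Ada, beside 356 expected counts. For Dpp4 it held 2375 beside 4833, and for Nt5e 2203 beside 7690. Its counts were thus no fixed part of the expected counts, and ratios from it are not on the scale of the TPM ratios. The cause of the sign changes was not tested. Entpd1/P2rx7 ranged from -0.21 to -0.14 with 1 library left out and no longer exceeded its spread without library 2 (-0.20). Steps past the spread in the order of levels were 6 over coding transcripts and 8 in the smaller table, against 3. Genes varying between libraries numbered 6 (65.8% of all genes tested), against 0 after division by overdispersion (0.734%) and 0 in the smaller table (33.4%). Without libraries 1, 2 and 3 they numbered 3, 5 and 3, beside 48.6%, 41.1% and 45.0% of all genes tested. The count was 6 with TMM and with DESeq2 size factors (65.6% and 65.7%). With a summed count of at least 1 it was 7 of 10, Adora2b included, against 41.7%. Isoform values are limited by windows shared between transcripts, and for Adora2b and Slc29a2 by low counts. No paired analysis was possible because the libraries form 1 group.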
